A study of Mus musculus with 6 samples.

Results

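The 10 enzyme genes described here carry long-chain fatty acids through mitochondrial beta-oxidation: Cpt1a, Cpt2, Acadvl, Acadl, Acadm, Hadha, Hadhb, Ech1, Acaa2 and Etfdh. They were taken by gene name from a table of 21362 genes, and all 10 were found. All 10 were also among the 11516 genes averaging 1 CPM or more (counts scaled to a common library total, here after TMM scaling), and all 10 averaged over 10 CPM. The RNA came from 6 libraries of mouse CD4+ T cells, in a study of sorafenib, a kinase inhibitor given against liver and kidney cancer, and its effect on regulatory T cells. No treatment, genotype, strain, age or culture is stated in the labels of any library, so the libraries stand in no group and are called library 1 to library 6 after their titles. No comparison between treated and untreated cells was made, and no library was treated as a replicate of another. Values given as a series are in the order of libraries 1 to 6.

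Mitochondrial beta-oxidation shortens a fatty acid by a pair of carbons at a time and passes the electrons to the respiratory chain. Long-chain acyl groups first cross the mitochondrial membranes as carnitine esters. Each round then needs an acyl-CoA dehydrogenase, an enoyl-CoA hydratase, a hydroxyacyl-CoA dehydrogenase and a thiolase. In T cells the pathway is best known from memory cells and regulatory T cells, where its requirement has been debated, while activated effector T cells rely strongly on glycolysis.

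Total counts per library lay between 32435799 and 36316162. Cd3e, a chain of the T cell receptor complex, had 200.3 to 218 CPM and Cd4, the co-receptor of helper T cells, had 412 to 482 CPM. Cd8a, a chain of the co-receptor of killer T cells, had 0.231 to 0.661 CPM, although Cd8b1, which encodes the partner chain, had 8.15 to 9.57 CPM and was named after its values were seen. Markers of regulatory T cells did not share one order over the libraries. Foxp3, their defining factor, stood at 7.37, 7.66, 7.86, 11.9, 13.4 and 11.2 CPM. For Ctla4, which encodes a checkpoint receptor that activated T cells also make, the values were 1526, 1559, 1548, 791, 771 and 809 CPM. Il2ra, the interleukin receptor chain that both kinds of cell carry, stood at 2301, 2201, 2178, 1556, 1613 and 1778 CPM. Foxp3 was higher in libraries 4, 5 and 6, and Ctla4 and Il2ra were higher in libraries 1, 2 and 3. Tnfrsf18 and Ikzf2, the other 2 markers on that list, ranged 1.17-fold and 1.13-fold. Markers of other cells were scarce: the summed CPM was 0.534 to 0.780 over 7 myeloid markers, 4.86 to 8.17 over 5 B cell markers, 0.369 to 0.515 over 4 NK cell markers, and at most 0.260, 0.116 and 0.287 over the matched hepatocyte, adipocyte and erythroid markers. Each of the hepatocyte, adipocyte and erythroid markers was at 0 in at least 1 library, as were Lyz2, Csf1r, Fcgr1 and C1qa of the myeloid list and Ncr1, Klrb1c and Klra8 of the NK cell list. In bulk RNA, fewer cells that express a gene and less of its RNA per cell cannot be told apart.

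All 10 enzymes were expressed in every library, and at the median their fold range was about that of genes averaging 10 CPM or more. That set has no upper limit and was not matched to the enzymes, which averaged 10.6 to 107 CPM. The fold range of a gene, its highest library over its lowest, had a median of 1.20 over the 10 enzymes, against 1.29 over the 11516 genes tested and 1.22 over the 8371 genes averaging 10 CPM or more. With TMM scaling, 0 of the 10 reached a range of 2-fold and 0 reached 1.5-fold, while with plain totals Cpt2 reached 1.51-fold. Across all genes tested, the share at 2-fold was 10.5% and that at 1.5-fold was 27.6%, and for the 8371 more abundant genes the shares were 3.33% and 13.5%. Acadl, Cpt2, Hadhb and Cpt1a, 4 of the 10 enzymes, had a highest library at least 25% above the lowest, against 57.2% of all genes tested and 43.9% of the 8371. Their ranges were larger than those of 84.8%, 78.3%, 74.4% and 71.4% of the 8371. For the other enzymes this share lay between 9.58% for Etfdh and 49.3% for Ech1. Exact Poisson 95% intervals of the highest and the lowest library were apart for 9 of the 10 enzymes, the exception being Etfdh. That was so for 85.0% of all genes tested and 88.2% of the 8371, so a spread beyond counting error was the rule in these libraries. Intervals here cover counting error only. The interval of a fold range is for the highest and the lowest library, picked after sorting, so it can exclude equal levels by counting error alone.

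**Figure D1:**
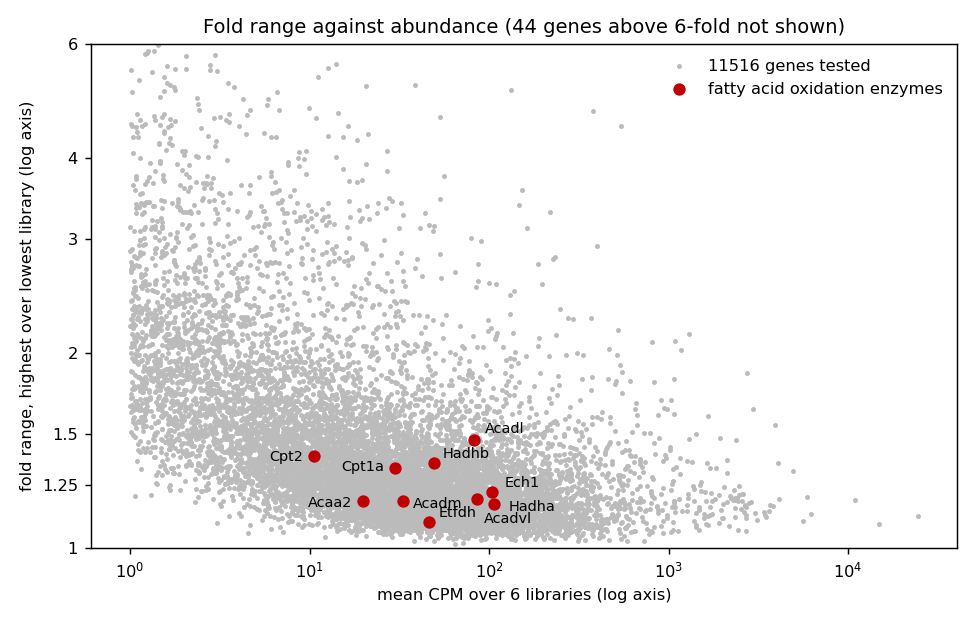
Fold range of every gene tested (vertical log axis, highest over lowest library) against its mean CPM over the 6 libraries (horizontal log axis). Grey points are the 11516 genes tested and red points the 10 enzymes, which lie between 1.10-fold for Etfdh and 1.47-fold for Acadl. A further 44 genes above 6-fold are not shown.

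The spread past counting error differed between enzymes. The chi-square of a gene's 6 counts against the scaled library totals, divided by its degrees of freedom, would be near 1 if counting error alone were at work. It was 75.2 for Acadl, 31.7 for Ech1, 29.6 for Hadhb and 1.80 for Etfdh, with a median of 14.7 over the 10 enzymes and 7.65 over all genes tested. This measure grows with the count of a gene, and its median was 10.1 over the 8371.

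The choice of library total matters for differences of this size. TMM scaling and plain totals shifted libraries against each other by up to 0.12 on the log2 scale, or 1.09-fold, for every gene alike. With TMM scaling, libraries 1, 2 and 3 held the highest 3 values of Acadl, Acadm, Acadvl, Hadha, Hadhb and Ech1, which are 6 of the 10 enzymes. With plain totals, that held for 3 of these 6, namely Acadl, Hadhb and Ech1. Libraries 4, 5 and 6 held the highest 3 values of Cpt1a and Acaa2 with either total, and of Cpt2 with plain totals but not with TMM scaling. How often all genes tested had the same 3 highest libraries was not computed, so these counts are not read as particular to the enzymes. Orders given for Acadm, Acadvl, Hadha and Etfdh are those with TMM scaling.

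**Figure D2:**
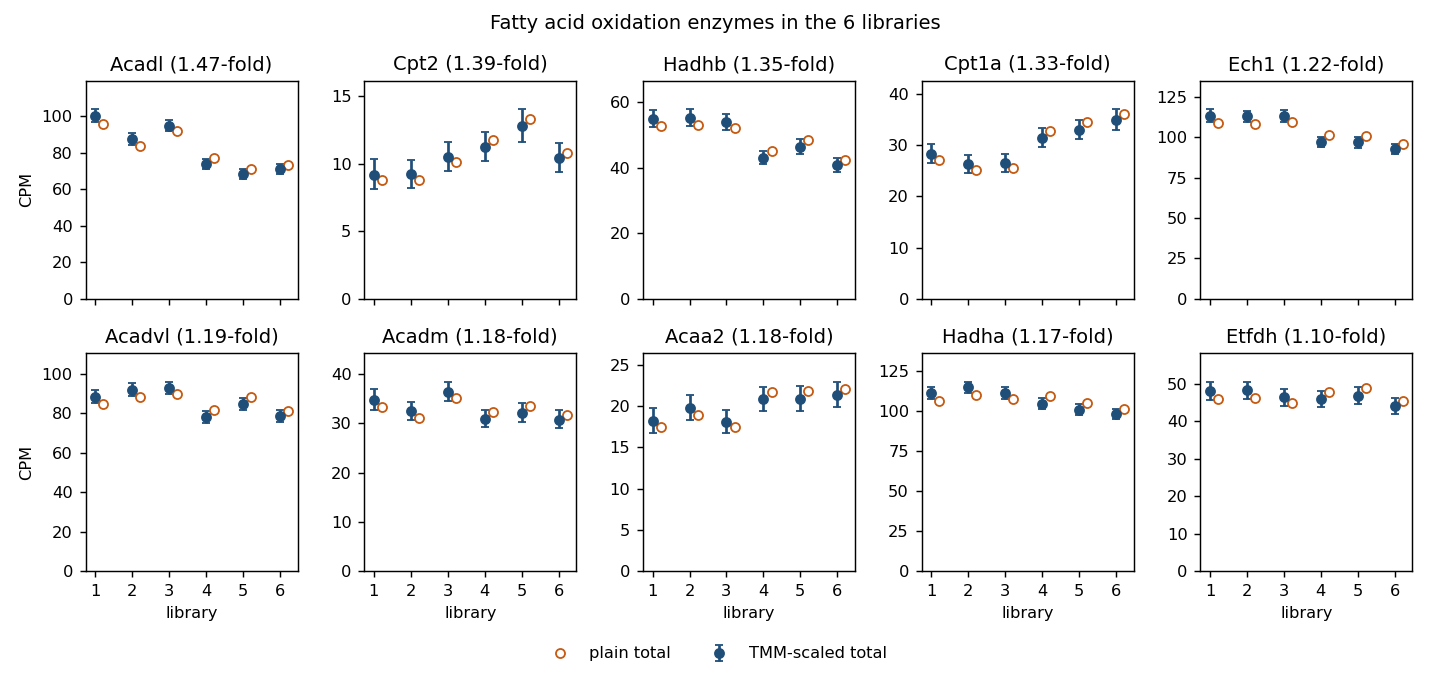
CPM of each enzyme gene (vertical axes from 0) in libraries 1 to 6 (horizontal axes), sorted by fold range. Filled points use the TMM-scaled total with exact Poisson 95% intervals, and open points use the plain total. Acadl, Hadhb and Ech1 lie higher in libraries 1 to 3 with either total, and Cpt1a and Acaa2 lie higher in libraries 4 to 6.

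Entry into the mitochondrion depends on 2 carnitine palmitoyltransferases. Cpt1a, on chromosome 19, encodes the liver-type enzyme of the outer membrane, which makes acylcarnitine and is the step inhibited by malonyl-CoA. It stood at 28.3, 26.2, 26.5, 31.4, 33.0 and 34.9 CPM, from counts of 880 to 1243. The values of libraries 4, 5 and 6 lay above those of libraries 1, 2 and 3, but the 95% intervals of library 1 (26.5 to 30.3) and library 4 (29.6 to 33.2) overlapped. The highest library, library 6, exceeded the lowest, library 2, by 1.33-fold (95% interval 1.22 to 1.45). Cpt2, on chromosome 4, encodes the enzyme of the inner membrane that turns acylcarnitine back into acyl-CoA. Its values were 9.20, 9.22, 10.5, 11.3, 12.8 and 10.5 CPM. Library 5 was highest and library 1 lowest, 1.39-fold apart (1.20 to 1.62), and libraries 3 and 6 were nearly equal, so with TMM scaling the 3 highest libraries were not those of Cpt1a.

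Acyl-CoA dehydrogenases with overlapping chain-length preference carry out the first oxidation of a round. Acadvl, on chromosome 11, encodes the very long-chain enzyme, which is bound to the inner membrane. It stood at 88.2, 91.9, 92.8, 78.0, 84.4 and 78.5 CPM, with library 3 highest and library 4 lowest, 1.19-fold apart (lower 95% bound 1.13). Its principal transcript shares 24.02% of its 50-base windows with other genes, mainly Dvl2, which runs on the opposite strand and overlaps 1151 exon bases of Acadvl. Dvl2 itself stood at 32.0, 30.1, 31.7, 25.4, 26.0 and 26.6 CPM, and the strand setting of the counting is not given in the sources used here, so the part of Dvl2 in the Acadvl count was not tested.

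Acadl, on chromosome 1, encodes the long-chain dehydrogenase, which in mice acts on straight and branched long chains. It ranged most of the 10, with 100.2, 87.6, 94.9, 73.7, 68.2 and 70.9 CPM from counts of 2371 to 3310. Each of libraries 1, 2 and 3 lay above each of libraries 4, 5 and 6, with no overlap of their 95% intervals: the lowest lower bound of libraries 1 to 3 was 84.5 CPM in library 2, and the highest upper bound of libraries 4 to 6 was 76.5 CPM in library 4. Library 1 exceeded library 5 by 1.47-fold (1.39 to 1.55), or by 1.35-fold with plain totals. This range was larger than that of 70.2% of all genes tested and of 84.8% of the 8371 genes averaging 10 CPM or more. Acadm, on chromosome 3, encodes the medium-chain enzyme that takes over as chains shorten. It stood at 34.9, 32.5, 36.5, 30.9, 32.1 and 30.8 CPM, 1.18-fold between library 3 and library 6 (1.09 to 1.28). Of its transcript windows, 4.10% also occur in other genes, with Gm5131, a name not among the counted genes, sharing the most.

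The upstream sequences of Acadl, Cpt1a and Cpt2 are shown because these 3 genes were among the 4 with the widest ranges and their libraries were ordered differently. They are the 250 bases before each RefSeq start in GRCm38.p6, 5′ to 3′ on the gene's own strand. The positions are chr1:66863310-66863559 on the minus strand for Acadl, chr19:3323051-3323300 on the plus strand for Cpt1a and chr4:107923590-107923839 on the minus strand for Cpt2. Capitals mark the GC box GGGCGG and the nuclear receptor half-site AGGTCA, on either strand.
Acadl: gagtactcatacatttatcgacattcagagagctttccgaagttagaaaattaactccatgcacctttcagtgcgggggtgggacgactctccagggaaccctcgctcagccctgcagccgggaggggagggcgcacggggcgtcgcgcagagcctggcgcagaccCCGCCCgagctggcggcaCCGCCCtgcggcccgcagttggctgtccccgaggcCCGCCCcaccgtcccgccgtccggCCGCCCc
Cpt1a: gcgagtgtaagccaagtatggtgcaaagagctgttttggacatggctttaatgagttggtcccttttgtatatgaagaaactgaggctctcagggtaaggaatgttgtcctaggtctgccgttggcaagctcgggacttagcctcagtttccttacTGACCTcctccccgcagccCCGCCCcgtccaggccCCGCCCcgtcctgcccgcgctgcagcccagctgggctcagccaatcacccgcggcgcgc
Cpt2: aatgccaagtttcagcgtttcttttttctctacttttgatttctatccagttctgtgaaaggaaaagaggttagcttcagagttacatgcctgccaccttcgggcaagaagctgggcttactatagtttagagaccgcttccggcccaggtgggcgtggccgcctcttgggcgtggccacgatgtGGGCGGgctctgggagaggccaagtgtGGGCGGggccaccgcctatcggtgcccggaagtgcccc
GC boxes numbered 4 before Acadl and 2 each before Cpt1a and Cpt2. The half-site occurred once before Cpt1a and was not in the windows of Acadl and Cpt2. Of the 10 enzymes, 9 matched an entry of the RefSeq promoter table. GC boxes were in the windows of 6 of these 9, against 32.7% of 32851 promoter windows of the same length. Half-sites were in 3 of the 9, those of Acadm, Acadvl and Cpt1a, against 14.0% of all windows. A PPAR element spelled as a pair of half-sites 1 base apart, AGGTCANAGGTCA, was in 0 of the 9 and in 0.0335% of all windows. Further motifs were searched in the same way. The CCAAT box was in 2 of the 9, against 33.8% of all windows, and the E-box CACGTG in 0, against 6.02%. An estrogen-related receptor element was in 0 of the 9, against 0.387%, and a nuclear respiratory factor 1 element in 1, against 0.782%. An enzyme was counted if any of its entries matched, while the percentages are over single windows, so these measures are unlike. Hadha and Hadhb, both among the 6 with GC boxes, have windows that overlap. The 3 windows shown had 56.8% to 68% of G and C, against a median of 52.4% over all windows. All these matches describe letters in a window and not binding.

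The mitochondrial trifunctional protein performs the remaining steps of a round on long chains. Hadha encodes its alpha subunit, with the hydratase and the hydroxyacyl-CoA dehydrogenase, and Hadhb encodes its beta subunit, the thiolase. The 2 genes lie head to head on chromosome 5, and their RefSeq starts are 272 bases apart. That stretch, which lies upstream of both, is shown because it is common to a pair whose counts did not keep a constant ratio. It spans chr5:30154981-30155252 in GRCm38.p6 and is written on the plus strand, from the start of Hadha towards that of Hadhb. Capitals mark GC boxes, of which there are 2, and the half-site AGGTCA has no match.
Hadha-Hadhb: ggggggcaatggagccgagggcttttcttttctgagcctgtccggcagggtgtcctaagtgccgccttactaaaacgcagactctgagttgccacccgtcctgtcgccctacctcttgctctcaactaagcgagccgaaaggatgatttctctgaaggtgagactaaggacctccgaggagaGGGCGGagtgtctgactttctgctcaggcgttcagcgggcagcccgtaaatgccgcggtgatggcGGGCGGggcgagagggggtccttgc

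Hadha stood at 111, 115, 111, 104.9, 101.0 and 98.3 CPM, with library 2 above library 6 by 1.17-fold (1.12 to 1.23). Hadhb stood at 55.1, 55.3, 53.9, 43.2, 46.4 and 40.9 CPM, with library 2 above library 6 by 1.35-fold (1.26 to 1.45). Both were lower in libraries 4, 5 and 6 with TMM scaling and with DESeq2 size factors, and for Hadha this was lost with plain totals. A ratio of 2 genes within a library does not depend on the library total. Hadha over Hadhb was 2.02, 2.08, 2.07, 2.43, 2.18 and 2.40 in counts. On the FPKM scale (counts divided by transcript length and library total, as deposited) the ratio ranged 1.20-fold, with 5.30 (95% interval 5.002 to 5.62) in library 4 and 4.41 (4.16 to 4.68) in library 1, and these intervals were apart.

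The absolute size of the Hadha to Hadhb ratio depended on the gene models. The length behind the deposited FPKM of Hadhb was 5922 bases, while its principal transcript in GENCODE M21 (GRCm38) has 2048 bases. For Hadha these lengths were 2716 and 4017 bases. With principal transcript lengths the ratio of Hadha over Hadhb was 1.03, 1.06, 1.05, 1.24, 1.11 and 1.22. The change of length does not touch differences between libraries. In addition, 58.7% of the 50-base windows of the principal Hadhb transcripts also occur in other genes, with Gm13910 sharing the most. No counted gene has the name Gm13910. Reads of Hadhb may have been left out or assigned to other names, which was not tested, so the level of Hadhb is uncertain.

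Acaa2 and Ech1 encode soluble matrix enzymes, and Ech1 also reaches peroxisomes. Acaa2, on chromosome 18, encodes a thiolase that releases acetyl-CoA in the last step of a round. Its values were 18.2, 19.8, 18.1, 20.8, 20.9 and 21.4 CPM, with library 6 above library 3 by 1.18-fold (1.06 to 1.32), or above library 1 by 1.26-fold with plain totals. Ech1, on chromosome 7, encodes an isomerase that handles double bonds of unsaturated chains. It stood at 113.6, 113.1, 113.2, 97.1, 96.9 and 93.0 CPM, 1.22-fold between library 1 and library 6 (1.16 to 1.28), or 1.14-fold between library 3 and library 6 with plain totals. Libraries 1, 2 and 3 were within 1 CPM of each other, and their intervals did not overlap with those of libraries 4, 5 and 6.

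Etfdh, on chromosome 3, encodes the flavoprotein dehydrogenase that hands electrons from all acyl-CoA dehydrogenases to ubiquinone. It moved least of the 10, at 48.0, 48.2, 46.3, 45.8, 46.8 and 44.0 CPM, and its fold range of 1.10 (1.02 to 1.17) was smaller than that of all but 7.05% of the genes tested. The highest library was library 2 with TMM scaling and library 5 with plain totals. Etfdh shares 278 exon bases with 4930579G24Rik on the opposite strand, which had 2.67 to 5.34 CPM, and the part of those reads in the Etfdh count was not tested. Of the 50-base windows of its principal transcript, 0% occur in other genes.

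Per length, Ech1 was the most abundant transcript, with deposited FPKM of 95.6, 95.3, 96.2, 89.1, 88.9 and 84.4. Acadl, Hadha and Acadvl followed with median FPKM of 41.3, 39.5 and 39.4, and their ranges overlapped, so their order was not fixed. Etfdh, Acadm and Acaa2 came next with medians of 20.2, 15.9 and 13.6 FPKM, each above the following one in all 6 libraries. Hadhb had 8.49, Cpt1a 5.94 and Cpt2 4.46 FPKM at the median. The ranges of Hadhb and Cpt1a overlapped, and so did those of Cpt1a and Cpt2, although Cpt1a was above Cpt2 in all 6 libraries. With principal transcript lengths, Hadhb had a median of 24.6 FPKM and stood next to Hadha at 26.7 FPKM, while Cpt1a had 6.94 and Cpt2 had 4.42 FPKM. Both carnitine palmitoyltransferases thus held the lowest 2 medians with principal transcript lengths as with the deposited values.

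**Figure D3:**
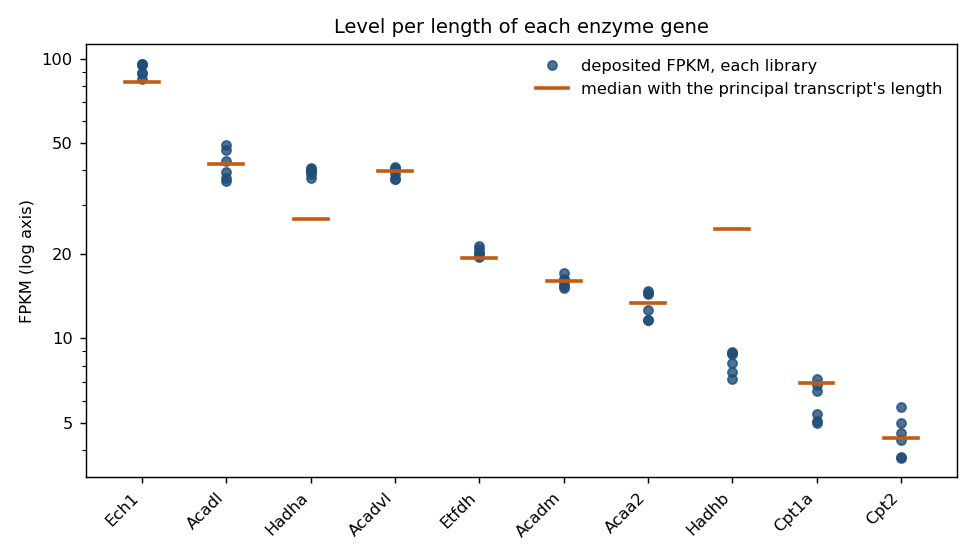
FPKM of each enzyme gene (vertical log axis), ordered by the median. Points are the deposited values of the 6 libraries, and bars are medians computed with the length of the principal GENCODE M21 transcript. The bar of Hadhb, at 24.6 FPKM, lies above all its points, and that of Hadha, at 26.7 FPKM, lies below all its points.

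Ratios within a library compared the enzymes with each other. Acadl over Acadm on the FPKM scale was 3.04, 2.85, 2.76, 2.52, 2.24 and 2.44, a range of 1.36-fold, with 3.04 (2.84 to 3.26) in library 1 and 2.24 (2.09 to 2.41) in library 5. Acadvl over Acadm was 2.39, 2.66, 2.40, 2.38, 2.48 and 2.40, and the intervals of its highest and lowest library overlapped. So of the long-chain and very long-chain dehydrogenases, Acadl had the wider range against Acadm. Cpt1a over Cpt2 was 1.43, 1.33, 1.17, 1.30, 1.20 and 1.56, with 1.56 (1.39 to 1.75) in library 6 and 1.17 (1.04 to 1.33) in library 3.

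Over all 45 pairs of the 10 enzymes, the ratio ranged between 2.04-fold and 1.10-fold, with a median of 1.34-fold. The widest was that of Acadl and Cpt2, a pair singled out after its values were seen. Acadl over Cpt2 was 13.1, 11.5, 10.9, 7.90, 6.43 and 8.18 on the FPKM scale, highest in libraries 1, 2 and 3. The narrowest was that of Hadha and Ech1. The ratios between the 10 transcripts were thus not constant over the libraries.

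**Figure D4:**
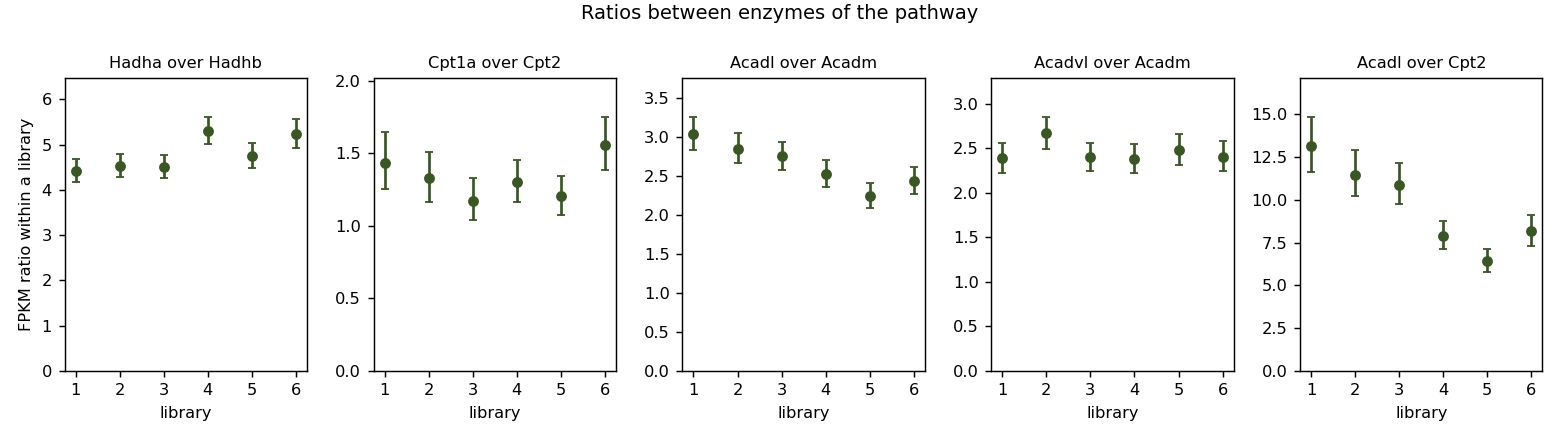
Ratio of deposited FPKM within each library (vertical axes from 0) for 5 pairs of enzymes, with exact binomial 95% intervals, across libraries 1 to 6 (horizontal axes). Acadl over Cpt2 lies between 10.9 and 13.1 in libraries 1 to 3 and between 6.43 and 8.18 in libraries 4 to 6, while Acadvl over Acadm stays between 2.38 and 2.66.

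Summed over the 10 enzymes, the range between libraries depended on the library total. With TMM scaling the sum was 607, 599, 604, 537, 543 and 523 CPM, a range of 1.16-fold with libraries 1, 2 and 3 above libraries 4, 5 and 6. The summed level per length, which rests on plain totals, was 289, 285, 290.5, 276, 277 and 265 FPKM, a range of 1.09-fold. As a share of counts, also on plain totals, the sum was 0.0582%, 0.0574%, 0.0584%, 0.0561%, 0.0566% and 0.0541%. The exact binomial 95% interval of that share was 0.0576% to 0.0592% in library 3 and 0.0533% to 0.0548% in library 6. The median over the 10 enzymes of the log2 deviation from a gene's own median was 0.04, 0.07, 0.07, -0.05, -0.02 and -0.11 with TMM scaling. The range of this median level was 0.18, and it was 0.082 without library 6 and 0.09 with plain totals.

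Transcripts of mitochondrial genes were read beside these values, which is not a measure of mitochondrial content itself. On plain totals, the 13 mitochondrially encoded genes took 2.02%, 1.90%, 1.98%, 2.45%, 2.37% and 2.41% of counts, higher in libraries 4, 5 and 6. For 13 nuclear genes of mitochondrial structure, import and folding the median deviation with TMM scaling was -0.08, -0.06, -0.05, 0.03, 0.04 and 0.02. Of these genes, 0 ranged 1.5-fold. Hspa9, a mitochondrial chaperone gene with the most reads of them, ranged 1.10-fold, and Timm23, an import channel gene, ranged most at 1.43-fold. The B cell markers, at most 3.80 CPM each, deviated by -0.29, -0.19, -0.35, 0.19, 0.28 and 0.20. Over the 10 T cell identity genes the median deviation went in the direction of the enzymes, at 0.06, 0.10, 0.05, -0.09, -0.06 and -0.05. Single genes of that list differed: Cd4 and Lat were higher in libraries 4, 5 and 6, and Cd3e was highest in library 6. The range of that level was 0.20, against 0.18 for the enzymes. The part of mitochondrial content, of other cells and of the T cell and regulatory T cell markers in the values of the enzymes was not tested.

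Other genes of fatty acid metabolism were read from 13 lists ordered by role, of which 75 genes had a mean of at least 1 CPM. Their median fold range was 1.29. Of the 75, 20 reached 1.5-fold and 7 reached 2-fold, against 27.6% and 10.5% of all genes tested. The 7 were Cpt1c, Acacb, Dgat1, Dgat2, Ppargc1b, Acot1 and Acot2, of which Cpt1c, Acacb and Acot1 had under 5 CPM in every library.

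**Figure D5:**
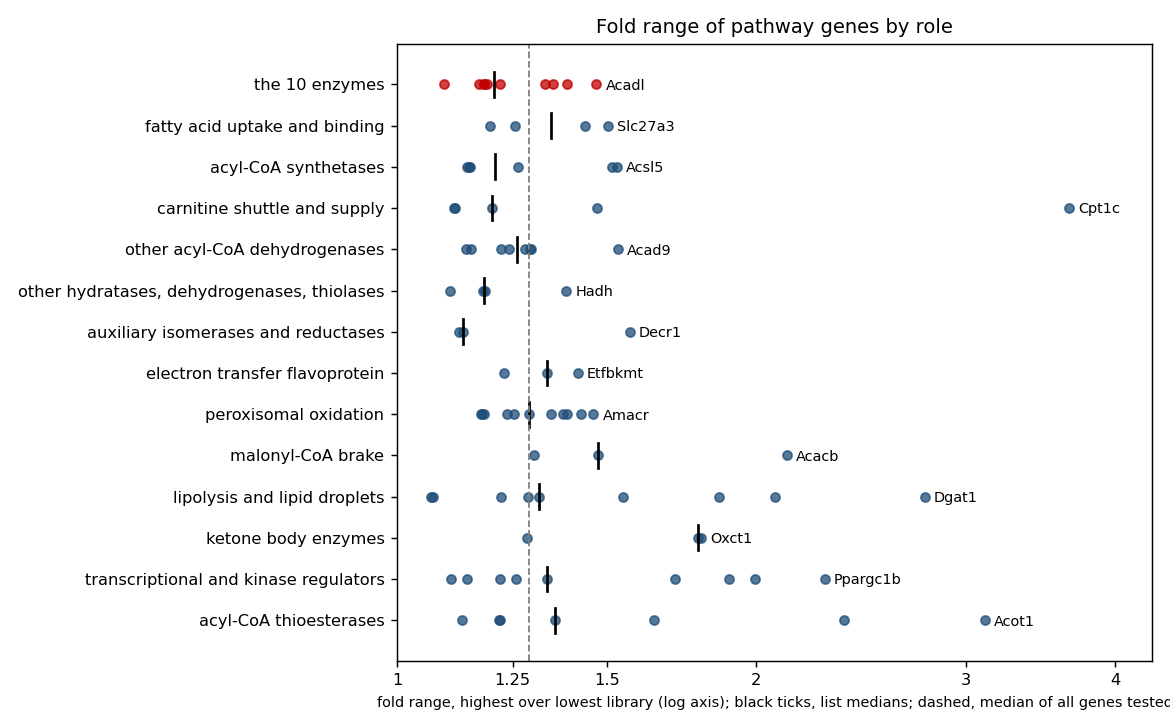
Fold range over the 6 libraries (horizontal log axis) of each gene tested, in rows by role, with the 10 enzymes in red. Black ticks are list medians, the dashed line is the median of all genes tested, 1.29, and the gene with the widest range in each row is named. Dgat1 reaches 2.77-fold and Cpt1c 3.66-fold, while the 10 enzymes end at 1.47-fold with Acadl.

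Fatty acids enter the cell and are activated to acyl-CoA before any of these enzymes act. Among uptake genes, Slc27a4, a fatty acid transport protein gene, had the most reads and ranged 1.20-fold, and Slc27a3, a related gene, ranged 1.502-fold. Among acyl-CoA synthetases, Acsl4, which prefers arachidonic acid, had the most reads, 178 to 205 CPM, and ranged 1.151-fold. Acsl5, which encodes a mitochondrial and reticular synthetase, stood at 76.7, 78.6, 78.1, 106, 111 and 117 CPM and ranged most of that list, 1.53-fold.

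The rest of the carnitine system differed little between libraries where it was abundant. Slc25a20, the carnitine-acylcarnitine carrier between Cpt1a and Cpt2, ranged 1.20-fold. Slc22a5, the carnitine importer of the plasma membrane, ranged 1.12-fold, as did Crot, a peroxisomal carnitine transferase gene. Crat, the carnitine acetyltransferase gene, ranged 1.47-fold. The muscle isoform Cpt1b had at most 6 reads in a library, and the brain isoform Cpt1c stood at 1.19, 1.91, 1.66, 3.43, 4.51 and 3.26 CPM, 3.66-fold apart (2.63 to 5.58). Per length, Cpt1a had at least 4.99 FPKM in every library, Cpt1c at most 1.54 FPKM and Cpt1b at most 0.0602 FPKM.

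Malonyl-CoA, the inhibitor of the Cpt1 step, is made by acetyl-CoA carboxylases and removed by malonyl-CoA decarboxylase. Acaca, the cytosolic carboxylase gene, stood at 28.7, 27.9, 28.3, 38.2, 38.9 and 41.2 CPM, 1.47-fold apart (1.36 to 1.60). Its 3 highest libraries, 4, 5 and 6, were also those of Cpt1a, and how common that was over all genes tested was not computed. Acacb, the carboxylase gene of the outer mitochondrial membrane, was low at 1.09 to 2.39 CPM, and Mlycd, the decarboxylase gene, ranged 1.30-fold.

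Enzymes beside the 10 in the same steps behaved unevenly. Hadh, the short-chain hydroxyacyl-CoA dehydrogenase gene, stood at 55.5, 63.5, 60.6, 76.9, 71.8 and 73.5 CPM, higher in libraries 4, 5 and 6, where its long-chain counterpart Hadha was not higher with TMM scaling. Acad9, a dehydrogenase gene that also serves complex I assembly, ranged 1.53-fold, and Gcdh, of lysine breakdown and the one with most reads in its list, ranged 1.14-fold. Decr1, the reductase gene for unsaturated chains, ranged 1.57-fold, with 10.7, 12.8, 12.3, 16.9, 16.8 and 16.7 CPM, while Ech1, which serves the same kind of chains, was highest in libraries 1 to 3. Hsd17b10, a hydroxyacyl-CoA dehydrogenase gene, ranged 1.11-fold, and Eci2, an isomerase gene, ranged 1.13-fold. Etfa and Etfb, the subunits that pass electrons to Etfdh, ranged 1.23-fold and 1.33-fold, and Etfbkmt, a methyltransferase gene acting on Etfb, ranged 1.42-fold. Among peroxisomal genes, Amacr, a racemase gene, ranged most at 1.46-fold.

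Genes that store or release fatty acids had a median range of 1.31-fold over 9 genes. Dgat1, which encodes an enzyme of the last step of triglyceride synthesis, stood at 45.4, 43.0, 43.0, 18.9, 17.5 and 16.4 CPM, 2.77-fold apart (2.52 to 3.06). Plin2, a lipid droplet coat gene with the most reads of that list, ranged 1.07-fold. Among ketone body genes, Oxct1, the enzyme of ketone use, stood at 35.0, 36.5, 32.6, 58.6, 54.9 and 56.4 CPM, 1.80-fold apart and higher in libraries 4, 5 and 6. Of the thioesterases, Acot7 had the most reads and ranged 1.22-fold, and Acot1 ranged most, with 16 to 60 reads. Acot1 and Acot2 are paralogs of very similar sequence, which makes the count of each uncertain.

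Regulators of the pathway were present in part. Ppara, the receptor best known for inducing these enzymes in liver, had at most 11 reads in a library and 0 in libraries 1 and 6, where a floor of 3 counts stands for 0.0966 and 0.0843 CPM. Ppargc1a, a coactivator of mitochondrial genes, had at most 8 reads and 0 in library 6. Ppard, the related receptor present in many tissues, ranged 1.26-fold around a median of 71.2 CPM. Pparg stood at 21.7, 21.4, 20.2, 15.1, 15.3 and 12.7 CPM, 1.71-fold apart. Rxra, which encodes the partner of these receptors, stood at 15.1, 14.9, 15.4, 27.05, 29.9 and 28.7 CPM, and Ppargc1b, a coactivator related to Ppargc1a, at 3.70, 3.44, 3.47, 6.78, 7.21 and 7.93 CPM. Esrra, the estrogen-related receptor alpha gene, ranged 1.11-fold, and Ncor1, a corepressor gene with the most reads of the list, 1.14-fold. Prkaa1, a catalytic subunit of AMP-activated kinase, ranged 1.34-fold, Prkaa2, the other catalytic subunit, had 16 to 54 reads, and Stk11, the upstream kinase gene, ranged 1.22-fold. Nr1d1, a clock repressor gene, had 0.803 to 1.57 CPM.

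The genes whose pattern over the 6 libraries was most like that of Acadl were Zfp715, Zfp52, Abhd18, Itgav and Pea15a. Likeness was the mean absolute difference in log2 deviation from a gene's own median, over 6 libraries and 8361 candidate genes averaging 10 CPM or more. It was 0.02 for Zfp715 and 0.03 for Pea15a, against a median of 0.21, and 47 genes were within 0.05. Zfp715, a zinc finger gene, stood at 46.7, 41.1, 45.3, 33.9, 32.3 and 32.8 CPM.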

How the data were processed

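RNA sequencing was run on 6 libraries, each labelled as CD4+ T cells of the mouse. Per the labels' protocols, TRIzol was used for extraction and the VAHTS Universal V5 kit for library construction. Tools named in the submitters' processing notes are HISAT2, fastp, HTSeq, DESeq2 and R 3.2.0, with GRCm39 as assembly. The sources used here name neither the gene annotation, nor how strand was handled in counting, nor further versions. The authors deposited raw read counts per gene and FPKM values, in which the deposited counts are scaled by a length per gene and by each library's total.

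Since no label names a treatment, no groups were made and no test between libraries was run. The labels do not say if mice or cultures were shared between libraries. Total counts of 32435799 to 36316162 per library set the precision, as exact intervals for counting error. The members, the gene lists and the rule for named genes were chosen with earlier results of these data known. The rule names all 10 members, the gene with most reads and the one with the widest range in each pathway list, all genes of the carnitine, electron transfer, malonyl-CoA and regulator lists, and the 5 genes most like the member with the widest range. The regulatory T cell markers beside Foxp3 were named after their values were seen. Some genes that the rule names are not reported here.

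Counts were scaled with TMM in edgeR 4.0.16 (R 4.3.3), with factors of 0.958 to 1.04. Fold ranges used log2 CPM with a prior count of 2 for genes averaging 1 CPM or more. Python 3.11.15, scipy 1.17.1, pandas 2.3.3, numpy 2.4.6 and matplotlib 3.10.9 were used. The 95% intervals were exact Poisson for CPM and exact binomial for ratios and shares. The procedures were run on simulated counts with counting error only and known changes in some genes. The spread past counting error of these libraries was not simulated. Alternatives were size factors of DESeq2 1.42.0, plain totals, FPKM plus 0.1, a prior count of 0.5, a 5 CPM minimum, no minimum, scaling without mitochondrially encoded genes, and leaving out each library. Principal transcript lengths, and the ratio of Acadl to Cpt2, were added after the data were seen. Promoter sequences are from RefSeq (GRCm38.p6) and gene models from GENCODE M21, another build than that of the counts.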

Additional observations from a re-analysis of the deposited data

Results flagged for a closer look

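The ratio of Acadvl over Acadm in library 2 lay apart from the other 5 libraries. It was 2.66 there, and 2.39, 2.40, 2.38, 2.48 and 2.40 in libraries 1, 3, 4, 5 and 6, so the gap to the nearest library took 0.657 of the whole range, above Dixon's 95% critical value for 6 values. The 95% interval in library 2, 2.49 to 2.85, overlapped with that of library 4, 2.22 to 2.55. Chance alone passes this limit in about 1 of 20 sets of values, and 17 sets were examined.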

How the results depend on the processing

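Of 153 recomputed values of the main results, 145 stayed within counting error or within 1.5 times of the value reported. Part of the 153 could not move. The filter on low values does not touch the enzymes, which all average over 10 CPM. Leaving out a library that is neither highest nor lowest keeps a ratio's range. The enzymes' median level counted as unmoved with plain totals, although its range went from 0.18 to 0.09. The 145 is therefore no measure of robustness. The number of enzymes at 1.5-fold or more was 1 with plain totals and 1 with the deposited FPKM, namely Cpt2 at 1.51-fold with plain totals, against 0 with TMM scaling. The median chi-square per degree of freedom of the 10 enzymes was 9.15 with plain totals. Plain totals also reduced the ranges of Acadl, Acadvl, Ech1, Hadha and Hadhb to 1.35, 1.10, 1.14, 1.09 and 1.255. The number of pathway genes at 1.5-fold or more was 32 without a filter on low values, over 90 genes, and the number at 2-fold or more was 15 without a filter and 4 at a minimum mean of 5 CPM, over 69 genes. With each library left out in turn, the range of the enzymes' median level lay between 0.082 and 0.19 on the log2 scale, the lowest without library 6, and the range of their summed FPKM between 1.05-fold and 1.09-fold, also lowest without library 6. With plain totals the range of the median level was 0.09. No paired analysis was possible because the labels give no groups.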
